A study of Mus musculus with 17 samples.

Results

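Troponins and tropomyosins are the proteins that make contraction of striated muscle depend on calcium, and the 9 mouse genes described here encode most of the forms that heart muscle can make. They were chosen by symbol and not by any measured value: Tnnc1, Tnni3, Tnnt2, Tnnt1, Tnni1, Tpm1, Tpm2, Tpm3 and Tpm4. All 9 were present in the deposited table of 28640 genes. RNA from mouse hearts was sequenced in 3 groups: 6 hearts of mice that carried a transplanted CT-26 tumour and swam as exercise (tumour_swim), 6 of mice with the tumour alone (tumour) and 5 of mice with no tumour (control). The CT-26 line comes from a mouse colon carcinoma. The study asked whether aerobic exercise alters the heart trouble that comes with a growing tumour. Every tumour_swim mouse carried a tumour and no tumour-free mice swam, so the 2 factors were not crossed. The labels give neither strain, age and sex nor the swimming schedule. Whether each sample is a different animal is not stated either, so the spread that the p-values rest on may be technical in part.

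On the thin filament, tropomyosin lies along actin as a coiled coil and blocks the sites where myosin binds. Troponin sits on tropomyosin as a complex of 3 subunits: troponin C (Tnnc1) binds calcium, troponin I (Tnni3 in the adult heart, Tnni1 in the fetal heart and slow skeletal muscle) holds the filament off, and troponin T (Tnnt2 in the heart, Tnnt1 in slow skeletal muscle) ties the complex to tropomyosin. Tpm1 encodes the main tropomyosin of the mouse heart, Tpm2 and Tpm3 encode striated muscle forms as well as forms of other cells, and Tpm4 is best known from the cytoskeleton of non-muscle cells.

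The upstream sequences of 4 members are printed because 3 of these genes (Tnnc1, Tpm1 and Tnnt1) were lower in tumour than in control hearts and the other one, Tnnt2, was not. They are the 250 bases before the RefSeq gene start, 5′ to 3′ on the gene's strand, in build GRCm38.p6. Capitals mark the MCAT element (CATTCC or its reverse complement GGAATG), which TEAD factors bind, and TATAAA, a form of the TATA box. The windows are chr14:31208062-31208311 on the + strand for Tnnc1, chr9:67049214-67049463 on the − strand for Tpm1, chr1:135836084-135836333 on the + strand for Tnnt2 and chr7:4515976-4516225 on the − strand for Tnnt1.
Tnnc1: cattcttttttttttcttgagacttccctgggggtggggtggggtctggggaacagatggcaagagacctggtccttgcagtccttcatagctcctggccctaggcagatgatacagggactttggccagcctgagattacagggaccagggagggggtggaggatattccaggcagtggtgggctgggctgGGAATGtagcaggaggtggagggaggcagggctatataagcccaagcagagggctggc
Tpm1: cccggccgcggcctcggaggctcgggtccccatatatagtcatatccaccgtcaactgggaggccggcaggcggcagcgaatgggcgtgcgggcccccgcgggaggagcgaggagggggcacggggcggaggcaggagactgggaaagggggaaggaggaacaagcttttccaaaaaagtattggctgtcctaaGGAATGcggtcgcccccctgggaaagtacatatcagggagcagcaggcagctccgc
Tnnt2: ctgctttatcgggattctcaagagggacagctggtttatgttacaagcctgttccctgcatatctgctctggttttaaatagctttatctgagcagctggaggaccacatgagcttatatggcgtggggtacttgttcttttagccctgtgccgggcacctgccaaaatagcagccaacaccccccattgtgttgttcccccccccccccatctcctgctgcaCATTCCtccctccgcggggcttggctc
Tnnt1: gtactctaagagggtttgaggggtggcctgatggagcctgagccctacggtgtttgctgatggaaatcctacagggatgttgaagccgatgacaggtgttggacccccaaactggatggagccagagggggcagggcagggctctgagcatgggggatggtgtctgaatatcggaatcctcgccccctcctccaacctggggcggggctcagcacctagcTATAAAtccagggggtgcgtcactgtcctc

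All 9 members matched a RefSeq promoter, in 12 windows, since some genes have more than 1 start. Motifs were searched on both strands. An MCAT element was found 58 bases before the start of Tnnc1, 56 bases before that of Tpm1 and 27 bases before that of Tnnt2, and in no window of the other 6 members. Of all 32851 promoters of the same length, 12.6% held it. Tnnt1 was the only member with TATAAA, 30 bases before its start, against 12.4% of all promoters. Looser forms of the TATA box were not counted, such as the tatataag near the start of Tnnc1, which is left in lower case. An E-box (CANNTG) stood in a window of 8 of the 9 members, all but Tpm4, against 66.2% of all promoters. GATAA was found in windows of Tnnt2 and Tpm3, against 22.6% of all promoters. The CArG box was in none of the 12 windows and in 1.47% of all promoters. None of the capital motifs overlapped another motif searched. MCAT was present in 2 genes called lower in tumour hearts and in 1 that was not, and its part in these levels was not tested.

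Depth, recovered from the values, was 13.41 to 19.8 M reads per library. The deposited values are FPKM, reads scaled to the merged exon length of the gene and to the depth of the library. Merged exons count every annotated exon once, and for Tnnt2 (7.75 kb of merged exon against 1.2 kb in its principal transcript) and Tpm1 (6.48 kb against 1.9 kb) they far exceed the mRNA, so FPKM understates these genes beside the others. In 4 libraries, tumour_swim 1, control 1, control 4 and control 5, short transcripts were over-represented: the Spearman correlation across genes between transcript length and the deviation from the mean of all libraries was -0.63, -0.62, -0.68 and -0.36, against 0.06 to 0.53 in the other 13. Genes are not independent replicates, so these values describe the libraries only. The mitochondrial genome accounted for 46.3% of reads in tumour_swim 1 and for 16.9% to 30.8% in the other 16 libraries. The tissue label was checked on 10 cardiomyocyte markers, all detected, whose summed level was 12320 to 13680 FPKM in tumour_swim, 11750 to 13950 FPKM in tumour and 13870 to 19300 FPKM in control hearts.

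The levels of the 9 transcripts spanned a wide range, and the cardiac forms were far above the others (shown for each library in the plot of FPKM by group). Tnni3 averaged 1734 ± 350 FPKM in tumour_swim, 1639 ± 138 FPKM in tumour and 2312 ± 868 FPKM in control hearts (SD, n = 6, 6 and 5). Tnnc1 averaged 1522 ± 421 FPKM in tumour_swim, 1335 ± 171 FPKM in tumour and 2668 ± 1167 FPKM in control. Tnnt2 averaged 881 ± 105 FPKM in tumour_swim, 956 ± 151 FPKM in tumour and 946 ± 276 FPKM in control. Tpm1 averaged 812 ± 142 FPKM in tumour_swim, 653 ± 105 FPKM in tumour and 1222 ± 337 FPKM in control. Below these 4 came Tpm4, between 8.52 and 37.3 FPKM in all libraries, Tpm2, between 2.91 and 19.9 FPKM, Tnnt1, between 2.16 and 11.5 FPKM, and Tpm3, between 0.714 and 3.89 FPKM. Tnni1 lay between 0.0306 and 0.31 FPKM, which rests on 2 to 22 reads per library. In control hearts the ranges of Tnnc1 and Tnni3 overlapped, as did those of Tpm1 and Tnnt2 and those of Tpm2 and Tnnt1, so the spread between libraries does not separate their group levels.

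**Figure D1:**
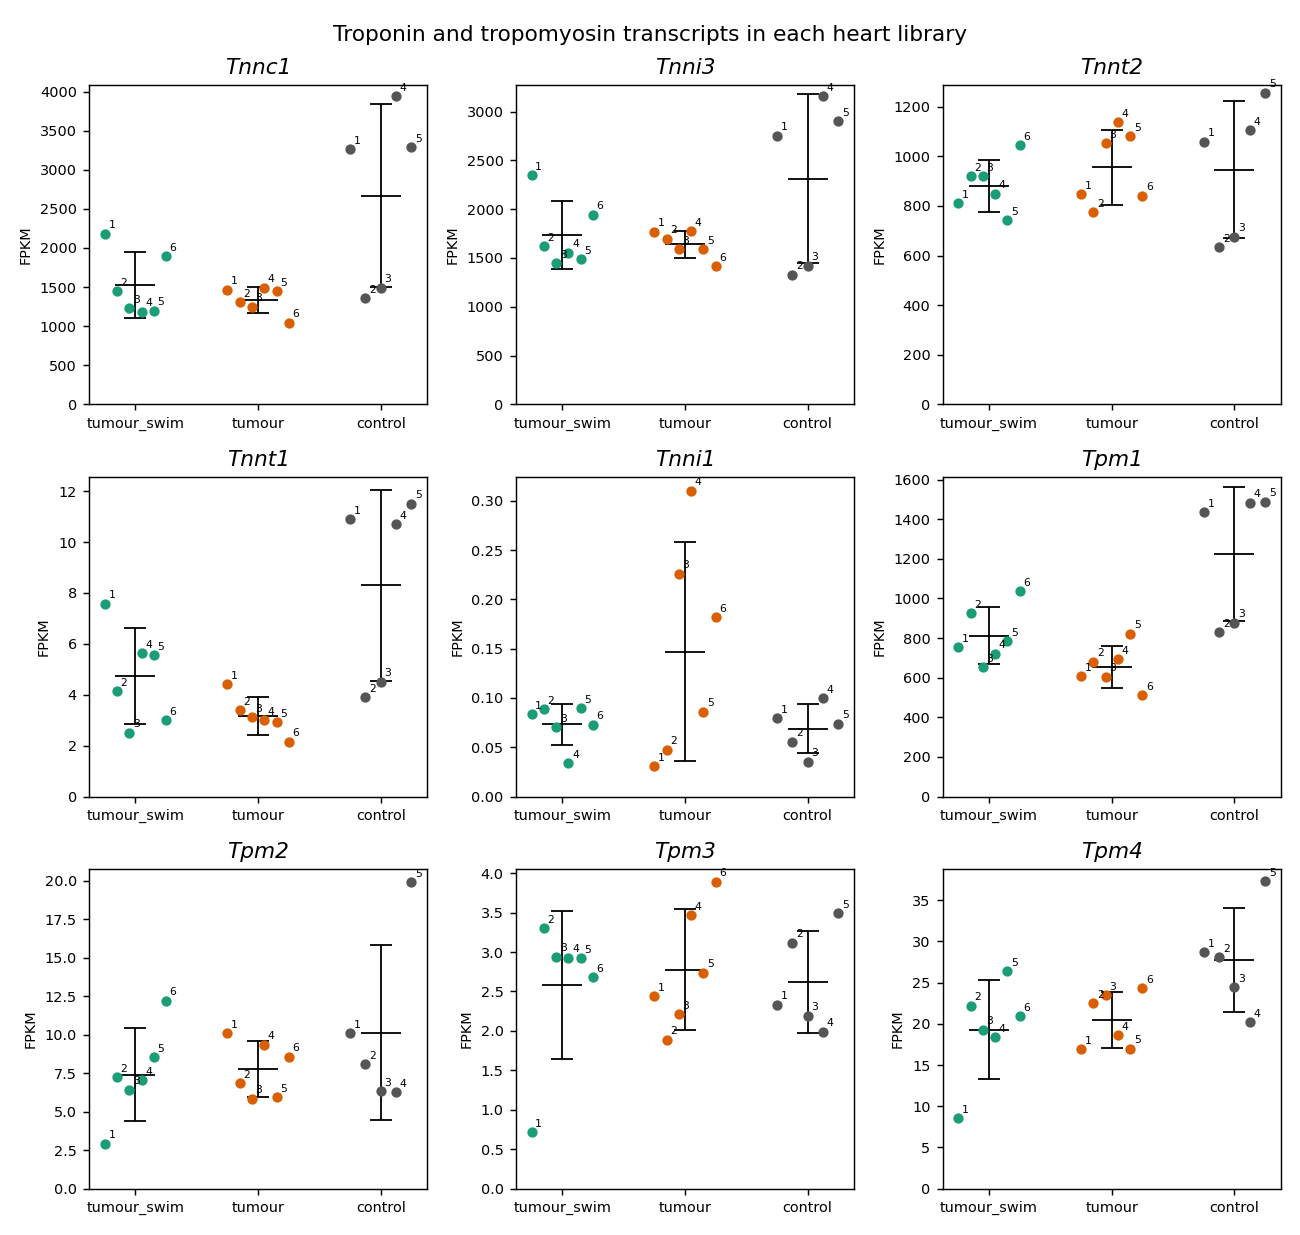
Level of each transcript (FPKM, y axis from 0, a separate scale per gene) in tumour_swim, tumour and control hearts; points are libraries with their replicate number, the long bar is the mean and the whiskers are 1 SD (n = 6, 6 and 5). Control 1, control 4 and control 5 lie above the other control libraries for Tnnc1, Tnni3, Tnnt2, Tnnt1 and Tpm1, and tumour_swim 1 is lowest for Tpm2, Tpm3 and Tpm4.

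Compared within each library, the first 2 of these pairs did keep an order in control hearts, and it differed between the groups. Tnnc1 was above Tnni3 in 0 of 6 tumour_swim, 0 of 6 tumour and 5 of 5 control libraries. Tpm1 was above Tnnt2 in 2 of 6 tumour_swim, 0 of 6 tumour and 5 of 5 control libraries. The pairs were picked with their values known. The order within a pair also rests on the exon length each gene was divided by, while its change from library to library does not.

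Tumour against control asks how the heart's thin filament transcripts stand in mice with a tumour growing elsewhere in the body. Of the 8 members that could be tested, 3 were lower in tumour hearts, Tpm1, Tnnt1 and Tnnc1, and 0 were higher. Across all 13709 genes tested, 8.47% passed in either direction, 3.33% as lower and 5.14% as higher. The median log2 fold change was -0.41 over the 8 members and 0.14 over all genes tested. The test was limma's two-sided test on log2(FPKM + 1), with all 17 libraries in 1 fit and Benjamini-Hochberg adjustment over all genes tested; a call is an adjusted p under 0.05. In whole hearts, a smaller share of muscle cells and less RNA per cell cannot be told apart.

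Tpm1 (chr9:67022590-67049406, − strand) encodes the tropomyosin that winds along cardiac actin. Its level in tumour hearts was 512 FPKM at the lowest, 643 FPKM at the median and 821 FPKM at the highest, and in control hearts it was 1434, 830, 878, 1483 and 1487 FPKM. All 6 tumour libraries lay below all 5 control libraries; of all genes tested, 2.82% were separated in this way in the same direction. The gap to the nearest controls was small, since control 2 and control 3 sat just above the highest tumour library. The log2 fold change was -0.87 ± 0.19 (SE, 95% interval -1.27 to -0.47, limma adjusted p = 0.0109). The call held in limma when any 1 of the 17 libraries was left out (adjusted p 0.0042 to 0.0372) and without control 1, control 4 and tumour_swim 1 together, at -0.67 (adjusted p = 0.0388). Without all 4 libraries rich in short transcripts, which leaves 2 controls, the limma value was -0.40 (adjusted p = 0.164).

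Tnnc1 (chr14:31208312-31211729, + strand) encodes the calcium-binding subunit. It had 1045 FPKM at the lowest, 1380 FPKM at the median and 1492 FPKM at the highest in tumour hearts, against 3264, 1360, 1492, 3940 and 3285 FPKM in control hearts. Control 1, control 4 and control 5 were far above every tumour library, while control 2 and control 3 fell within or at the edge of the tumour range, and 3 of 6 tumour libraries lay below all controls. This gave a log2 fold change of -0.88 ± 0.27 (SE, 95% interval -1.43 to -0.32, limma adjusted p = 0.0483). This call was lost in 14 of the 17 limma fits that left out 1 library, with an adjusted p of up to 0.145. Without the 4 libraries rich in short transcripts the limma value was -0.10 (adjusted p = 0.751). Tnnc1 has the shortest principal transcript of the 9 members, at 0.72 kb, and the high controls are 3 of those 4 libraries. The part of the length trend in this result was measured only by fits that removed it. With every library kept, the value in these fits was -0.74 (limma adjusted p = 0.021, merged exons) or -0.69 (adjusted p = 0.0142, principal transcripts). Counting left-out libraries and every other setting, the call of Tnnc1 was lost in 24 of 32 alternative fits.

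Tnni3 (chr7:4518305-4524229, − strand) encodes the inhibitory subunit of the adult heart, a long-standing blood marker of heart muscle damage. Its level in tumour hearts was 1413 FPKM at the lowest, 1644 FPKM at the median and 1774 FPKM at the highest, against 2751, 1329, 1421, 3156 and 2904 FPKM in control hearts. The controls split as they did for Tnnc1, with 3 above and 2 at the bottom of the tumour range. The log2 fold change of -0.41 (95% interval -0.87 to 0.06) did not pass limma's test (adjusted p = 0.235).

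Tnnt2 (chr1:135836354-135852260, + strand) encodes the tropomyosin-binding subunit of the heart. Tumour hearts had 776 FPKM at the lowest, 950 FPKM at the median and 1137 FPKM at the highest, against 1059, 634, 676, 1105 and 1257 FPKM in control hearts. All 6 tumour values lay within the control range, above control 2 and control 3. Its log2 fold change was 0.05 (95% interval -0.34 to 0.44, limma adjusted p = 0.866). Without the 4 libraries rich in short transcripts it was 0.53, and limma then called it higher (adjusted p = 0.0488), against the 2 remaining controls.

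Tnnt1 (chr7:4504570-4516382, − strand), the slow skeletal troponin T, lies 1.92 kb from Tnni3 on the same strand. It was measured at a low level, with 2.16 FPKM at the lowest, 3.06 FPKM at the median and 4.42 FPKM at the highest in tumour hearts, against 10.9, 3.91, 4.52, 10.7 and 11.5 FPKM in control hearts. Its reads numbered 80 to 178 per tumour library and 129 to 419 per control library. Tumour libraries lay below all controls in 5 of 6 cases, and tumour 1 reached into the control range. The log2 fold change was -1.06 ± 0.27 (SE, 95% interval -1.64 to -0.49, limma adjusted p = 0.0242). The call was lost in 6 of the 17 limma fits that left out 1 library (adjusted p of up to 0.0758), without 3 libraries (-0.76, adjusted p = 0.0739) and without 4 (-0.34, adjusted p = 0.357).

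Of 13 skeletal muscle markers, most of them of fast fibres, 11 were in the table and 5 could be tested. In tumour against control hearts 2 of the 5 were lower, Casq1 (log2 fold change -1.81, limma adjusted p = 0.00486) and Myl1 (-1.54, adjusted p = 0.0108), and 0 were called higher. Of all genes tested, 3.33% were called lower and 5.14% higher. Pvalb, a calcium buffer of fast fibres, had a value of the opposite sign (0.50, limma adjusted p = 0.117), with 0.195 to 1.43 FPKM in tumour hearts and 0 in 4 of 5 controls. Mylpf had -0.14 and Tnni2 0.03 (limma adjusted p = 0.598 and 0.937). The summed level of the list was 20.25 to 65.95 FPKM in tumour_swim, 19.95 to 35.85 FPKM in tumour and 50.51 to 115.5 FPKM in control hearts, most of it from Myl1. Myh1 and Myh2, myosins of fast skeletal fibres, were at 0 in all 5 controls and reached at most 0.0213 FPKM elsewhere. The fast skeletal troponins Tnni2 and Tnnt3 did not exceed 2.0 and 0.429 FPKM in any library. Tnnt1 belongs to slow skeletal muscle, on which markers of fast fibres say little, and its source in these hearts was not tested.

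Tnni1 (chr1:135779434-135810989, + strand), the fetal and slow skeletal inhibitory subunit, lies 25.4 kb from Tnnt2. It was 0.0306 FPKM at the lowest, 0.134 FPKM at the median and 0.31 FPKM at the highest in tumour hearts, against 0.0797, 0.0557, 0.0355, 0.1 and 0.0739 FPKM in control hearts. With a mean below 0.5 FPKM in every group it was not tested. It rested on 2 to 22 reads per tumour library and 2 to 6 per control library. In 3 of 6 tumour libraries, with 12, 22 and 11 reads, it was above all controls, and in 1 below them.

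The other tropomyosins did not pass the test in tumour hearts. Tpm4 (chr8:72134975-72153142, + strand), the cytoskeletal form, had 16.9 FPKM at the lowest, 20.5 FPKM at the median and 24.3 FPKM at the highest in tumour hearts, against 28.7, 28.1, 24.4, 20.2 and 37.3 FPKM in control hearts. Only control 4 lay within the tumour range. The log2 fold change was -0.41 (95% interval -0.88 to 0.06, limma adjusted p = 0.239). It passed in limma in 5 of 15 other settings, among them the fit without control 1, control 4 and tumour_swim 1, at -0.52 (adjusted p = 0.04). In the 17 fits that left out 1 library it passed in 0. Tpm2 (chr4:43514711-43523765, − strand), the beta form, had a log2 fold change of -0.25 (95% interval -0.85 to 0.36, limma adjusted p = 0.572). Its values were 5.84 to 10.1 FPKM in tumour hearts and 6.26 to 19.9 FPKM in control hearts, with control 5 alone above 10.1 FPKM. Tpm3 (chr3:90072649-90100902, + strand), the gamma form, ranged from 1.89 to 3.89 FPKM in tumour hearts and from 1.99 to 3.49 FPKM in control hearts, a log2 fold change of 0.05 (95% interval -0.4 to 0.5, limma adjusted p = 0.888).

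**Figure D2:**
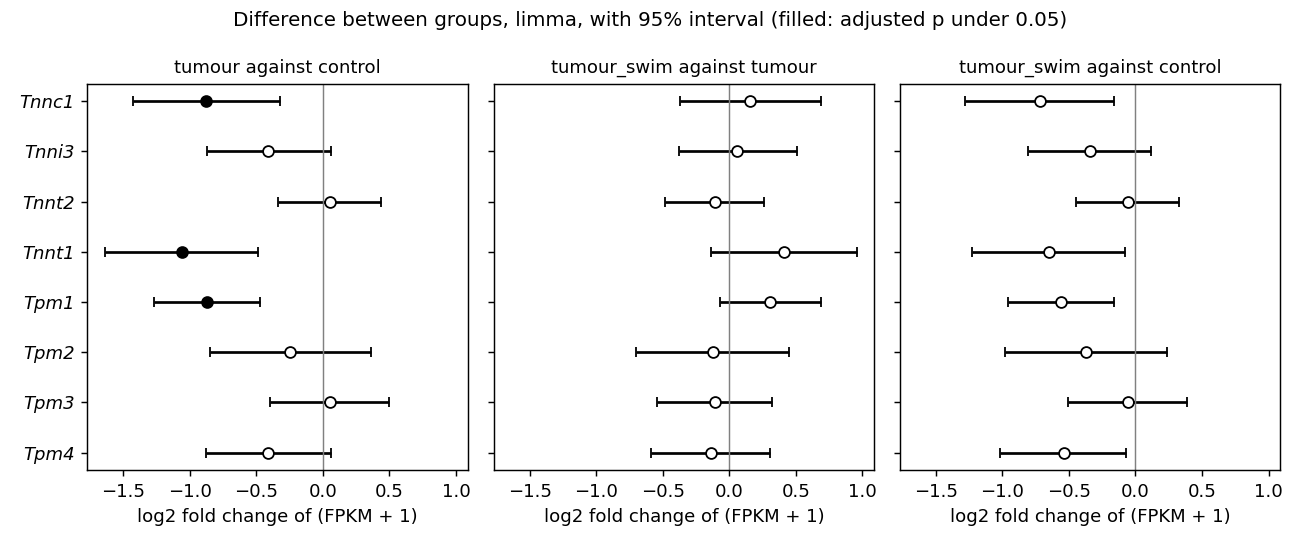
Log2 fold change of FPKM + 1 for the 8 tested members in the 3 comparisons, from limma (points) with 95% intervals (bars); filled points have an adjusted p under 0.05. The filled points are Tnnc1 (-0.88), Tnnt1 (-1.06) and Tpm1 (-0.87) in tumour against control, and there are none in the other comparisons.

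**Figure D3:**
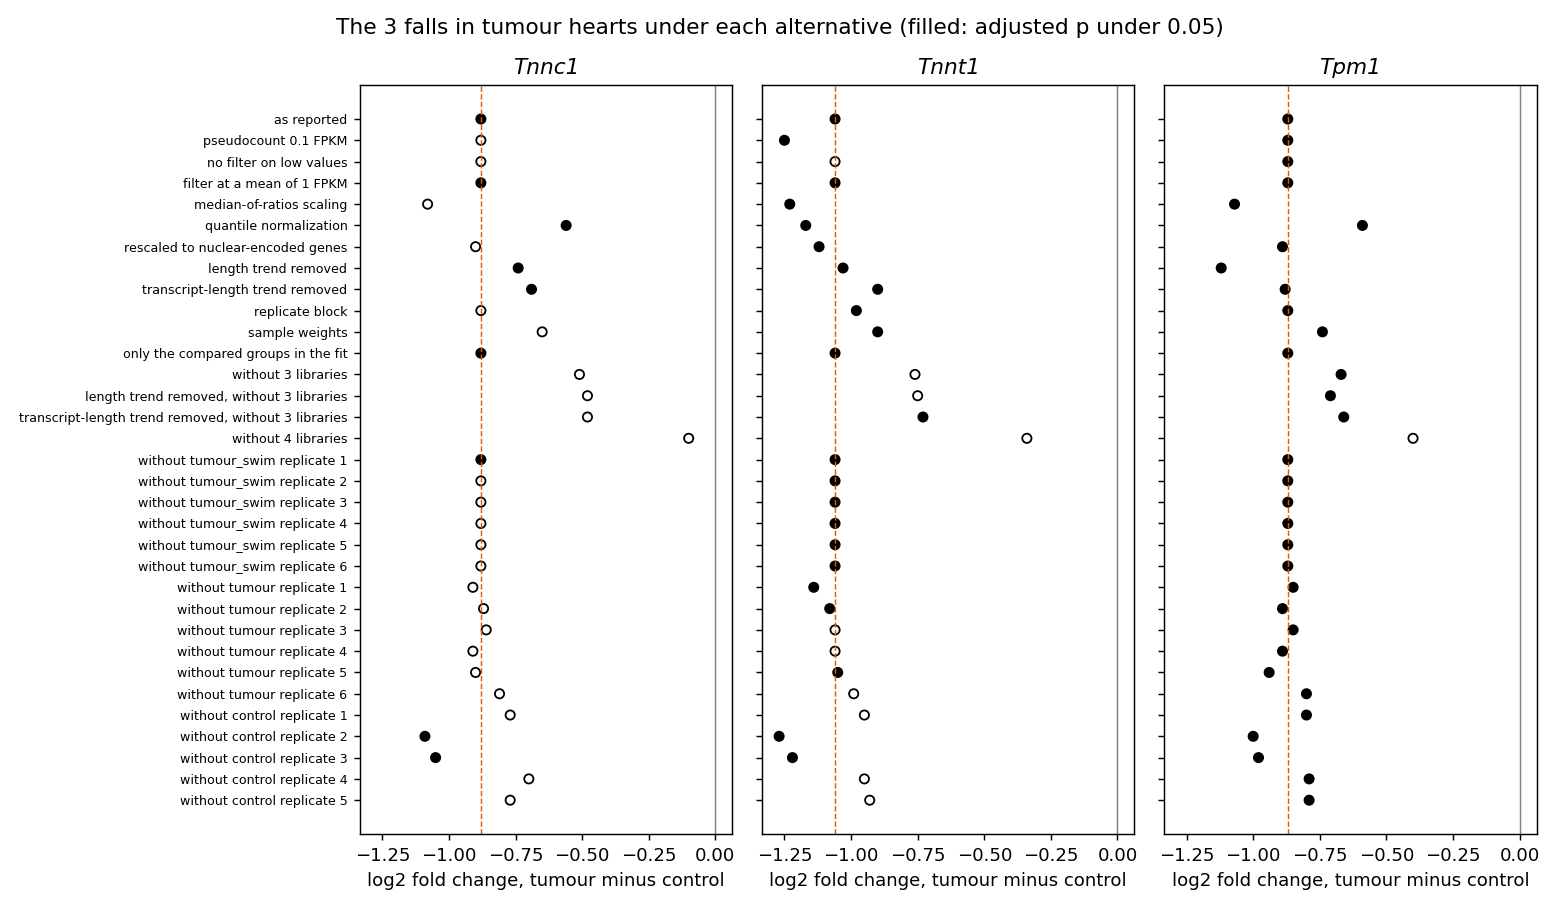
Log2 fold change of Tnnc1, Tnnt1 and Tpm1 in tumour minus control hearts (x axis) under each setting (rows); filled points have a limma adjusted p under 0.05 and the dashed line marks the value as reported. Tpm1 is filled in every row except the one without 4 libraries (-0.40), where Tnnc1 stands at -0.10 and Tnnt1 at -0.34.

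Tumour_swim against tumour asks whether swimming moved these transcripts in tumour-bearing mice. None of the 8 tested members passed limma's test, and none had an unadjusted p under 0.05. Of all genes tested, 0% passed the adjusted threshold and 4.04% had an unadjusted p under 0.05, so no gene was called in this comparison. The 3 transcripts that were lower in tumour hearts had positive values. Tpm1 had 653 FPKM at the lowest, 769 FPKM at the median and 1036 FPKM at the highest in tumour_swim hearts, against 512, 643 and 821 FPKM in tumour hearts. Of the tumour_swim libraries, 2 lay above all tumour libraries and the rest overlapped with them. No member had all tumour_swim libraries below all tumour libraries, and 0.226% of all genes tested did. The log2 fold change of Tpm1 was 0.31 (95% interval -0.07 to 0.69, limma adjusted p = 0.957).

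Tnnt1 had 2.51 FPKM at the lowest, 4.85 FPKM at the median and 7.58 FPKM at the highest in tumour_swim hearts, against 2.16, 3.06 and 4.42 FPKM in tumour hearts. In tumour_swim 1, tumour_swim 4 and tumour_swim 5 it exceeded every tumour library. Its log2 fold change was 0.41 (95% interval -0.14 to 0.96, limma adjusted p = 0.957). Tnnc1 had 1185 FPKM at the lowest, 1337 FPKM at the median and 2180 FPKM at the highest in tumour_swim hearts, against 1045, 1380 and 1492 FPKM in tumour hearts. Only tumour_swim 1 and tumour_swim 6 exceeded the tumour range, and the log2 fold change was 0.16 (95% interval -0.37 to 0.69, limma adjusted p = 0.957).

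The other 5 tested members had log2 fold changes between -0.14 and 0.06 in this comparison. The 95% intervals of all 8 stayed within -0.70 (Tpm2) and 0.96 (Tnnt1). For each member, changes within its own interval could not be told from none, for example -0.48 to 0.26 for Tnnt2. The median was -0.02 over the members and -0.08 over all genes tested. Tumour_swim 1, the library with 46.3% mitochondrial reads, was lowest of its group for Tpm2 (2.91 FPKM), Tpm3 (0.714 FPKM) and Tpm4 (8.52 FPKM), and highest for Tnnc1, Tnni3 and Tnnt1. Without it, the log2 fold changes of Tpm2, Tpm3 and Tpm4 were 0.08, 0.09 and 0.07, each with the opposite sign.

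Tumour_swim against control sets swimming tumour-bearing mice beside tumour-free mice, and it shares the control libraries with the first comparison and the tumour_swim libraries with the second. None of the 8 members passed limma's test here, against 0.905% of all genes tested in either direction, 0.35% as lower and 0.554% as higher. At an unadjusted p under 0.05, 4 of 8 members were lower, Tnnc1, Tnnt1, Tpm1 and Tpm4, against 6.75% of all genes tested. All 8 members had values below 0, with a median of -0.46 against 0.06 over all genes tested.

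Tpm1 had a log2 fold change of -0.56 (95% interval -0.96 to -0.16, limma adjusted p = 0.215), and 4 of 6 tumour_swim libraries lay below all controls. For Tnnc1 it was -0.72 (95% interval -1.28 to -0.16, limma adjusted p = 0.256), and 3 of 6 tumour_swim libraries lay below all controls. Without tumour_swim 1 the limma value of Tnnc1 was -0.83 and passed (adjusted p = 0.0423). Tnnt1 had -0.65 (95% interval -1.23 to -0.08, limma adjusted p = 0.327), with 2 of 6 libraries below all controls. Tpm4 had -0.54 (95% interval -1.02 to -0.07, limma adjusted p = 0.319). The remaining values were -0.37 for Tpm2, -0.34 for Tnni3, -0.06 for Tnnt2 and -0.06 for Tpm3. Side by side, Tpm1 thus stood at -0.56 in tumour_swim and at -0.87 in tumour hearts relative to the same controls, and the direct difference between tumour_swim and tumour was the 0.31 given above, which did not pass.

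Shares within a subunit family do not depend on how libraries were scaled, so 6 of them were set beside each other over libraries with exact permutation tests, two-sided and adjusted by Benjamini-Hochberg over the 18 tests. The share of Tnnc1 in the summed FPKM of the cardiac complex (Tnnc1, Tnni3 and Tnnt2) was 36.3 ± 2.96% in tumour_swim, 33.9 ± 1.68% in tumour and 44.2 ± 3.01% in control hearts (SD, n = 6, 6 and 5). It ranged from 33.0% to 40.8% in tumour_swim and from 31.7% to 35.9% in tumour, and all 5 controls, at 46.1, 40.9, 41.6, 48.0 and 44.1%, were above every tumour-bearing heart. The difference from control was -10.3 percentage points in tumour hearts (exact permutation p = 0.00433, adjusted p = 0.026) and -7.83 points in tumour_swim hearts (exact permutation p = 0.00433, adjusted p = 0.026). The value 0.00433 is the smallest these group sizes allow. Control 2 and control 3, which lay within the tumour range for the level of Tnnc1, were outside it for the share. Tumour_swim and tumour differed by 2.44 points (exact permutation p = 0.117, adjusted p = 0.195).

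The share of Tnnt1 in the troponin T transcripts (Tnnt1 and Tnnt2) was small throughout: 0.556 ± 0.263% in tumour_swim, 0.34 ± 0.111% in tumour and 0.832 ± 0.181% in control hearts (SD, n = 6, 6 and 5). The tumour range of 0.256% to 0.519% lay below the control values of 1.02, 0.613, 0.665, 0.96 and 0.904%. The difference between tumour and control was -0.492 points (exact permutation p = 0.00433, adjusted p = 0.026). Tumour_swim hearts, at 0.272% to 0.926%, overlapped both groups, with a difference of 0.216 points from tumour and of -0.276 points from control (exact permutation, adjusted p = 0.195 for each).

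Both shares keep their direction without the 4 libraries rich in short transcripts. The Tnnc1 share then differed by -7.35 points in tumour and -5.81 points in tumour_swim hearts, and the Tnnt1 share by -0.299 points in tumour hearts. With 2 controls left, no exact test adjusted over 18 can pass (adjusted p = 0.514 for each). The transcripts in these shares differ in length, and the part of the length trend in them was not tested.

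**Figure D4:**
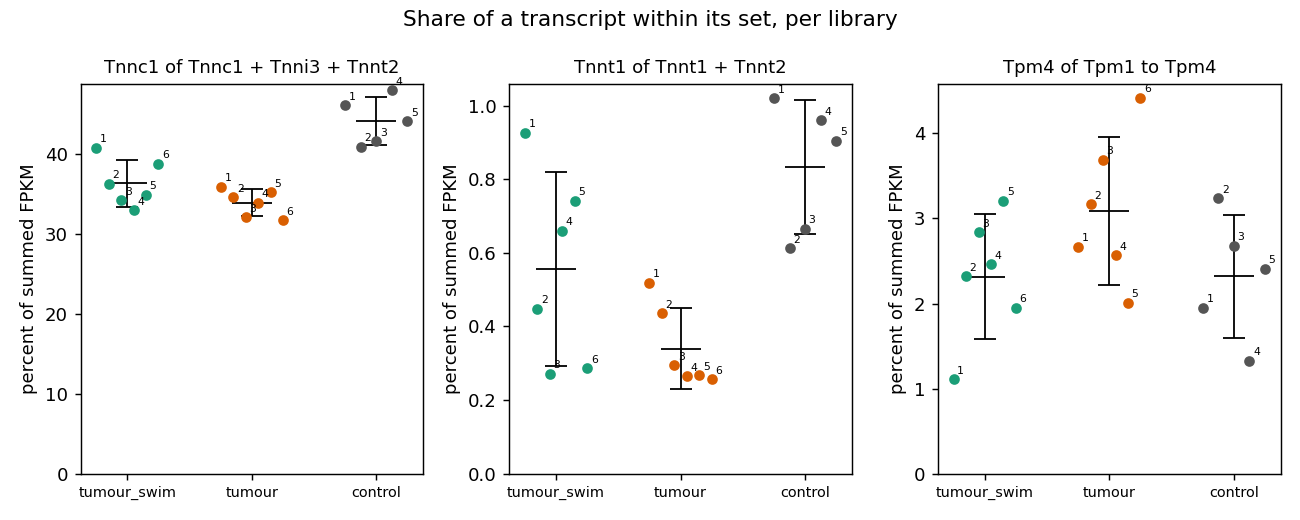
Share (percent of summed FPKM, y axis from 0) of Tnnc1 in the cardiac troponin transcripts, of Tnnt1 in the troponin T transcripts and of Tpm4 in the tropomyosin transcripts; points are libraries with their replicate number, bars are the mean and whiskers 1 SD (n = 6, 6 and 5). All 12 tumour-bearing hearts lie at or below 40.8% for Tnnc1 and all 5 controls at or above 40.9%, while the Tpm4 share overlaps in all 3 groups.

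Within the tropomyosins, Tpm1 made up nearly all of the summed FPKM in every library, and no share passed. Tpm4 held 2.31 ± 0.73% in tumour_swim, 3.09 ± 0.868% in tumour and 2.32 ± 0.722% in control hearts. The Tpm3 share was 0.418 ± 0.159% in tumour and 0.223 ± 0.0884% in control hearts, a difference of 0.195 points (exact permutation p = 0.0216, adjusted p = 0.0974). The Tpm2 share was 0.867 ± 0.27% in tumour_swim, 1.17 ± 0.365% in tumour and 0.801 ± 0.326% in control hearts (smallest adjusted p = 0.195, exact permutation). The share of Tnni1 in the troponin I transcripts was 0.00908 ± 0.0066% in tumour and 0.00306 ± 0.000689% in control hearts (SD, n = 6 and 5), a difference that did not pass (exact permutation p = 0.0909, adjusted p = 0.195).

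Correlations between members across the 17 libraries are given as a description. Tnni3 and Tnnc1 were the closest pair (Pearson r = 0.96, Spearman rho = 0.80 over 17 libraries), followed by Tnnc1 and Tpm1 (r = 0.89, rho = 0.72). Among the low-level tropomyosins r was 0.73 for Tpm2 and Tpm4 (rho = 0.40), 0.68 for Tpm2 and Tpm3 (rho = 0.54) and 0.66 for Tpm3 and Tpm4 (rho = 0.25). The lowest value was -0.35, for Tnni3 and Tpm3 (rho = -0.32). The libraries share their preparation, and the values given here were lower without the 4 that have a negative length trend, apart from that of Tnni3 and Tpm3 (-0.24). Over the other 13 libraries, a choice made after seeing the data, r was 0.65 for Tnni3 and Tnnc1 and 0.72 for Tnnc1 and Tpm1, against -0.05 for Tpm2 and Tpm4, 0.31 for Tpm2 and Tpm3 and 0.03 for Tpm3 and Tpm4. Tpm2, Tpm3 and Tpm4 have principal transcripts of 2.1, 2.23 and 2.13 kb, the other tested members of 0.72 to 1.9 kb. Tumour_swim 1 deviated by -1.17, -1.06 and -1.23 on the log2 scale for Tpm2, Tpm3 and Tpm4 and by 0.40, 0.38 and 0.60 for Tnnc1, Tnni3 and Tnnt1.

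**Figure D5:**
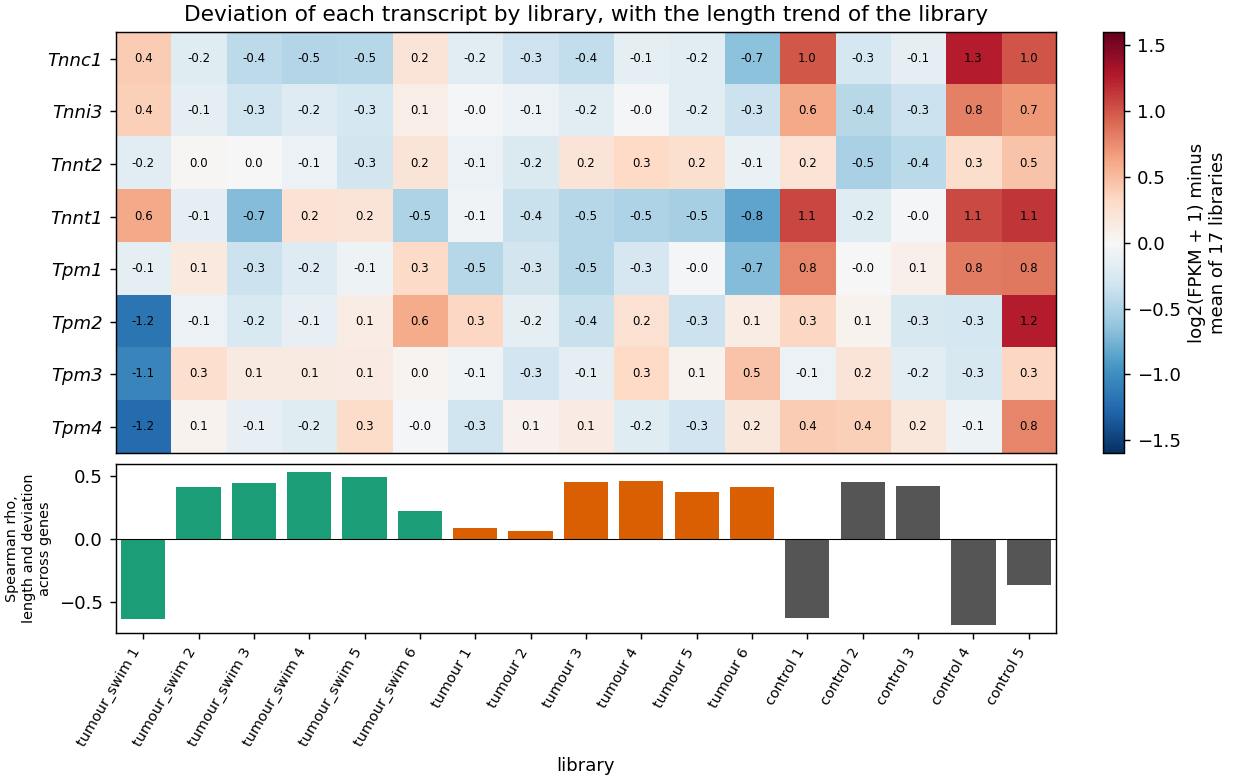
Deviation of each tested member (rows) from its mean over 17 libraries, on the log2(FPKM + 1) scale (colour and printed value), with the Spearman correlation between transcript length and deviation across all genes of each library below (bars). The 4 libraries with negative bars, from -0.68 to -0.36, include the 3 controls highest for Tnnc1 and the tumour_swim library lowest for Tpm2, Tpm3 and Tpm4.

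The 3 genes most like each member were taken over the 17 libraries. Tnnc1 ran closest with the myosin light chains Myl3 (r = 0.99) and Myl2 (0.98) and with Ndufv2 (0.98), a subunit of respiratory complex I. Tnni3 ran closest with the complex I subunit Ndufb10 (0.98), the peroxiredoxin Prdx2 (0.98) and the predicted gene Gm10250 (0.97). Tpm1 was most like Uqcrfs1 (0.98), the iron-sulphur subunit of complex III, Timm44 (0.97), of the mitochondrial import motor, and Pnck (0.97), a calmodulin-dependent kinase. For Tnnt1 they were Fabp3 (0.94), the fatty acid binding protein of heart, its pseudogene Fabp3-ps1 (0.93), which can share its reads, and Ecsit (0.92). For Tnnt2 the likeness was weaker, with Mdp1 (0.86), Haus4 (0.82) and Mtarc2 (0.81). Tpm2 was most like Igtp (0.92), Csrp1 (0.91) and Bag5 (0.89), Tpm3 like Hnrnpm (0.95), Gatm (0.94) and Cyb5r3 (0.94), and Tpm4 like Rnf115 (0.95), Thap1 (0.95) and Pea15a (0.94). All values are Pearson correlations of log2(FPKM + 1) over 17 libraries, with no test. They include the 4 libraries rich in short transcripts, and the part of the length trend in them was not tested. Principal transcripts measure 0.94, 0.89 and 1.7 kb for Myl3, Myl2 and Ndufv2, and 0.73, 1.61 and 0.48 kb for Ndufb10, Prdx2 and Gm10250. Those of the genes most like Tpm2, Tpm3 and Tpm4 run from 1.83 kb (Csrp1) to 3.93 kb (Hnrnpm).

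Genes that work with troponin and tropomyosin were counted in lists chosen by function, and none of these lists is independent of earlier results of these data. Of 22 tested partners on the thin filament, 4 were lower in tumour than in control hearts and 0 were higher. Of all genes tested, 3.33% were lower and 5.14% higher. The median log2 fold change was 0.07 over the partners and 0.14 over all genes tested. The 4 lower partners were 3 actins and a leiomodin. Acta1, skeletal actin, had 340 ± 262 FPKM in tumour hearts and 2386 ± 572 FPKM in control hearts (log2 fold change -3.07 ± 0.48 SE, limma adjusted p = 0.00103). Acta2, smooth muscle actin, had 38.5 ± 11.7 FPKM in tumour hearts and 197 ± 73.9 FPKM in control hearts (-2.31, limma adjusted p = 0.00269). Actc1, cardiac actin, had 1398 ± 167 FPKM in tumour hearts and 2801 ± 468 FPKM in control hearts (-1.0, limma adjusted p = 0.0109), and the call was lost under quantile normalization (-0.43, adjusted p = 0.3). Lmod3, which nucleates thin filaments, had 30.0 ± 1.61 FPKM in tumour hearts and 47.1 ± 9.22 FPKM in control hearts (-0.62, limma adjusted p = 0.0321), a call lost in 8 of the 17 fits that left out 1 library. How the authors assigned reads that match several actin genes is not given in the sources used here.

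In tumour_swim against tumour hearts none of the 22 partners passed limma's test, and 3 had higher values at an unadjusted p under 0.05. That threshold was met by 4.04% of all genes tested, in either direction. Acta1 had 1056 ± 690 FPKM in tumour_swim and 340 ± 262 FPKM in tumour hearts (log2 fold change 1.63, limma adjusted p = 0.957), and Actc1 had 2149 ± 811 FPKM in tumour_swim and 1398 ± 167 FPKM in tumour hearts (0.54, adjusted p = 0.957). Against control, 1 partner was lower in tumour_swim hearts, Lmod3, at 25.3 ± 6.31 FPKM in tumour_swim and 47.1 ± 9.22 FPKM in control hearts (-0.89, limma adjusted p = 0.0144). Of all genes tested, 0.35% passed as lower there. With only these 2 groups in the limma fit, the adjusted p of Lmod3 was 0.125.

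Of 23 kinases and phosphatases that act on troponin, 0 passed limma's test in any of the 3 comparisons. At an unadjusted p under 0.05 there were 2 higher in tumour against control, 1 lower in tumour_swim against tumour and 1 higher in tumour_swim against control. In tumour_swim against tumour, 4.04% of all genes tested met that threshold, in either direction. The share of all genes at that threshold was not computed for tumour against control, and for tumour_swim against control only that of lower genes (6.75%). The unadjusted counts of these lists in tumour against control therefore have no background to be read against. Prkcb, a protein kinase C, came closest in tumour against control (0.34, adjusted p = 0.0558), and passed limma's test with median-of-ratios scaling (0.30, adjusted p = 0.0297), after rescaling to nuclear-encoded genes (0.41, adjusted p = 0.0271) and with only the compared groups in the fit (0.34, adjusted p = 0.0499). In that comparison 10 of 15 other settings called at least 1 gene of the list, up to 4, so the count of 0 depends on the processing. Of 9 proteases and ligases known to act on troponin, 1 was higher in tumour hearts: Mmp2, a matrix metalloprotease that can cut troponin I, at 93.8 ± 34.8 FPKM in tumour and 30.7 ± 13.4 FPKM in control hearts (1.62, limma adjusted p = 0.027). Of 16 tested splicing factors of heart muscle, 1 was higher, Srsf5, at 41.3 ± 2.54 FPKM in tumour and 21.9 ± 3.93 FPKM in control hearts (0.90, limma adjusted p = 0.0324). Of all genes tested, 5.14% passed as higher in that comparison. Without a filter on low values neither Mmp2 (adjusted p = 0.0611) nor Srsf5 (adjusted p = 0.0629) passed limma's test, and their calls were lost in 5 and 9 of the 17 fits that left out 1 library. Of 22 tested transcription factors of heart muscle 0 passed limma's test, and Nfatc4 had the smallest p (0.60, adjusted p = 0.0751). At an unadjusted p under 0.05, 4 were higher and 2 lower, again with no background to be read against. The count of 0 too depends on the processing: 11 of 15 other settings called 2 to 8 of these genes. Nfatc4 passed limma's test in all 11, for example with the length trend removed (0.37, adjusted p = 0.0103), without 3 libraries (0.42, adjusted p = 0.0451) and without 4 (0.54, adjusted p = 0.0269). In tumour_swim against tumour or against control no gene of these 4 lists passed limma's test as reported. With sample weights, 3 transcription factors were higher in tumour_swim than in tumour hearts, Hand2 (1.04, limma adjusted p = 0.0101), Nkx2-5 and Srf, and against control 9 of 15 other settings called 1 to 3 transcription factors. At an unadjusted p under 0.05, the proteases gave 0 and 1, the splicing factors 0 and 0 and the transcription factors 2 and 2 in those 2 comparisons.

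Markers of heart muscle cells and of other cells were counted in the same comparison as the 3 lower members. Of all genes tested, 3.33% passed as lower and 5.14% as higher, with a median log2 fold change of 0.14. Of 10 cardiomyocyte markers, 4 were lower in tumour hearts (Casq2, Ckm, Mb and Myl3) and 0 higher, with a median log2 fold change of -0.13. Myl3, a myosin light chain, had 1902 ± 273 FPKM in tumour and 3373 ± 1194 FPKM in control hearts (-0.76, limma adjusted p = 0.0398). Its call was lost in 11 of the 17 limma fits that left out 1 library, without 3 libraries (-0.48, adjusted p = 0.127) and without 4 (-0.16, adjusted p = 0.547). The calls of Casq2, Ckm and Mb were lost in 10, 7 and 5 of those 17 fits. Without 4 libraries Casq2 passed limma's test (-0.73, adjusted p = 0.0477), while Ckm (-0.37, adjusted p = 0.121) and Mb (-0.22, adjusted p = 0.274) did not. Of 10 fibroblast markers 5 were higher. The sum over all 10 was 501.1 to 1718 FPKM in tumour_swim, 1229 to 2037 FPKM in tumour and 635.8 to 1165 FPKM in control. The lowest sums of tumour_swim and control came from tumour_swim 1 and control 4, both rich in short transcripts. Of 10 myeloid markers 5 were higher, with sums of 250.0 to 502.5 FPKM in tumour_swim, 341.3 to 720.7 FPKM in tumour and 210.8 to 452.9 FPKM in control hearts, and of 5 erythroid markers 3 were higher. The fibroblast, myeloid and erythroid calls were not followed over the other settings. Atrial markers gave 0 calls among 4 tested in limma, also at an unadjusted p under 0.05, smooth muscle and pericyte markers 1 lower of 10 (Acta2) and endothelial markers 1 higher of 10 (Vwf), and no lymphoid marker reached the expression limit. The part of any of these cell types, heart muscle cells included, in the lower values of Tpm1, Tnnt1 and Tnnc1 was not tested.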

How the data were processed

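Total RNA was extracted with TRIzol and made into libraries with a NEBNext Ultra kit, per the labels' protocols. Per the submitters' processing notes, fastp, FastQC and bcl2fastq were used and the build was mm10, with no versions. Not given in the sources used here: aligner, counter and annotation. The authors' deposited table has no named unit. Its values were taken as FPKM: with merged exon lengths from GENCODE M21, each column adds up to 99.0% to 99.7% of the total expected, and 98.7% to 99.0% of values under 20 reads lie within 0.1 of a whole number of reads. Depth was read from that step. Of 28640 gene IDs, 28260 matched GENCODE M21, but only 621 have the GRCm38 position in the table, so positions were taken from GENCODE by ID.

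From the authors' deposited FPKM, log2(FPKM + 1) was computed for the 13709 genes whose mean reached 0.5 FPKM in 1 or more groups and tested with limma 3.58.1 (limma-trend, two-sided, R 4.3.3, group as the only factor, 14 residual degrees of freedom). Fold changes on this scale understate the change of genes at low levels. Shares were tested by exact permutation in scipy 1.17.1. From each functional list, up to 3 called genes with the largest change per comparison, or the gene with the smallest p, were named, as were the 3 genes most like each member. The limma step was tested on simulated data. Alternatives covered pseudocount, filters, scaling, length trend, replicate block, sample weights, the groups in the fit and left-out libraries. Members and lists were chosen with earlier results of these data known.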

Additional observations from a re-analysis of the deposited data

Results flagged for a closer look

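Of 45 sets of values from 1 gene or share in 1 group, 3 held a library far from the others by Dixon's test; chance gives about 1 in 20. Tpm3 had 0.714 FPKM in tumour_swim 1, against 2.68 FPKM in the next lowest of the 6 tumour_swim libraries. The same library had the highest mitochondrial share, 46.3% of reads, and a transcript length correlation of -0.63. Tpm2 had 19.9 FPKM in control 5, against 10.1 FPKM in the next highest of the 5 control libraries. Tnni1 had 0.0336 FPKM in tumour_swim 4, against 0.0705 FPKM in the next lowest, a difference of a few reads.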

How the results depend on the processing

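In tumour against control, 3 members were called as reported, and 1 to 4 over the other settings. There was 1 call with no filter on low values, 1 without the 4 libraries rich in short transcripts (an alternative chosen after seeing the data, in which the call was Tnnt2, higher), and 1 to 3 over the 17 fits that left out 1 library. The calls of Tnnc1 were lost as well with a pseudocount of 0.1 (limma adjusted p = 0.0543), median-of-ratios scaling (0.0781), rescaling to nuclear-encoded genes (0.0681), sample weights (0.0738) and the replicate block (0.0567). In tumour_swim against control 0 members were called as reported, 1 with median-of-ratios scaling, 1 with quantile normalization and 0 to 1 when 1 library was left out; in tumour_swim against tumour it was 0 in every alternative.

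Genes called in tumour against control numbered 1161, from 824 to 2591 over the other settings and from 542 (without control 1) to 3666 (without tumour_swim 1) when 1 library was left out; in tumour_swim against control 124, from 48 to 628 and from 55 to 2208; in tumour_swim against tumour 0, from 0 to 45, the last with sample weights. Of the calls in tumour against control 60.6% were higher, 51.8% with median-of-ratios scaling, 51.2% with quantile normalization and 68.6% after rescaling to nuclear-encoded genes. In tumour_swim against control the share was 61.3%, and 50.8% with median-of-ratios scaling. Over all genes, the median log2 value of tumour against control was 0.14 as reported and 0.00 with quantile normalization or median-of-ratios scaling.

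No label says whether a replicate number marks a shared animal, litter or day. Correlations of same-numbered libraries across genes ran from -0.67 to 0.68. They include the length trend of each library, so they do not settle whether the numbers pair libraries. With the replicate block 861 and 84 genes were called in the comparisons with control. The Tnnt1 share differed by -0.475 points and the Tnnc1 share by -9.82 (tumour) and -8.33 points (tumour_swim) from control with the block (exact sign flips within replicate numbers, adjusted p = 0.281 each), and the Tpm4 share of tumour_swim by 0.0668. Tumour 6 and tumour_swim 6 have no control of the same number and dropped out. With the 5 pairs left, no share could pass this test against control. Without control 1, control 4 and tumour_swim 1 the Tnnt1 share (tumour) and the Tnnc1 share (tumour, then tumour_swim) differed from control by -0.388, -8.31 and -6.77 points (adjusted p = 0.214, exact permutation). Each exact p was then the smallest that the remaining group sizes allow. Without 4 libraries the values were -0.299, -7.35 and -5.81. Leaving out 1 library gave -0.546 to -0.446, -11.1 to -9.29 and -8.72 to -6.86 points, with 4 of 11 not passing each time, those without control 1, 3, 4 or 5. The groups stayed fully separated in those 4 fits. With 1 control fewer, the smallest exact p adjusts to 0.0571 (exact permutation) when only these 3 shares reach it, so the loss was set by group size. Without control 2 the Tpm3 share in tumour against control reached it too, and the adjusted p was 0.0429 (exact permutation). The Tpm3 share in tumour against control, 0.137 to 0.229, passed only without control 2. In tumour_swim against control the Tpm2 share was -0.00542 without 3 libraries and -0.0309 to 0.187 when 1 was left out, and the Tpm4 share -0.253 to 0.234.

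Signs turned only in values that no test called as reported, and the cause was not tested. In tumour against control, Tnnt2 was -0.15 with median-of-ratios scaling, -0.23 with the length trend removed and -0.08 to 0.17 when 1 library was left out. Without 4 libraries it was 0.53 and limma called it higher, so its sign in that call is opposite to that in other settings. Tnni3 was 0.03 with quantile normalization and 0.25 without 4 libraries; Tpm2 was 0.08 without 4 libraries and -0.37 to 0.01 when 1 was left out. Tpm3 was -0.09 with median-of-ratios scaling, -0.16 with quantile normalization, -0.18 and -0.01 with the length trend of merged exons or principal transcripts removed, -0.00 with sample weights, -0.07 without 3 libraries, -0.11 and -0.08 with both steps, and -0.03 to 0.13 when 1 was left out. In tumour_swim against tumour, Tnnt2 was 0.03 with median-of-ratios scaling and 0.02 with the length trend removed. With quantile normalization Tnni3 was -0.11, Tnnc1 -0.06, Mb -0.09 and Myl3 -0.01. Tnni3 was -0.05 with sample weights, -0.03 without 3 or 4 libraries, -0.05 and -0.03 with a length trend also removed, and -0.03 to 0.11 when 1 was left out. Without 3 or 4 libraries Tpm2, Tpm3 and Tpm4 were 0.08, 0.09 and 0.07; with sample weights 0.04, 0.11 and 0.06; with the length trend removed and without 3 libraries 0.05, 0.04 and 0.04 (merged exons) or 0.04, 0.06 and 0.03 (principal transcripts); and when 1 was left out -0.27 to 0.08, -0.18 to 0.09 and -0.24 to 0.07. Tpm3 was 0.00 with the length trend removed, and Casq2 was -0.00 to 0.36 when 1 library was left out. In tumour_swim against control, Tnnt2 was 0.15 with quantile normalization, 0.06 with the transcript length trend removed, 0.05 with sample weights, 0.13 without 3 libraries, 0.02 and 0.15 with both steps, 0.44 without 4 libraries and -0.19 to 0.06 when 1 was left out. Tpm3 was 0.11 with sample weights, 0.02 without 3 libraries, 0.12 without 4 and -0.12 to 0.14 when 1 was left out. Without 4 libraries Tnni3 was 0.22 and Tpm2 0.16, and Actc1 was 0.03 with quantile normalization. Depth limits Tnni1, which rests on 2 to 22 reads per library.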

Other observations

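The 4 libraries rich in short transcripts include 3 of the 5 controls, and the comparisons with control change without them. With all 4 left out, which removes tumour_swim 1 as well as control 1, control 4 and control 5, Tnnc1 and Tnni3 had log2 fold changes of -0.10 and 0.25 in tumour hearts and -0.06 and 0.22 in tumour_swim hearts, against -0.88 and -0.41 in tumour and -0.72 and -0.34 in tumour_swim hearts with every library. Tpm1 had -0.40 in tumour hearts (limma adjusted p = 0.164), against -0.87 with every library. The Tnnc1 share of the cardiac troponin transcripts kept its direction, at 40.9% and 41.6% in those 2 controls and at most 35.9% in tumour hearts. With 2 controls the adjusted exact test could not pass.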
